A study of Mus musculus with 5 samples.

Results

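The 10 genes described here encode basic leucine zipper transcription factors. They are the C/EBP genes Cebpa, Cebpb, Cebpd and Cebpg, the stress-responsive ATF genes Atf3, Atf4, Atf5 and Atf6, and the stress genes Ddit3 and Xbp1. They were taken by name from a transcript table, with transcripts summed per gene, and all 10 were found among 21667 genes. Total dorsal epidermis came from wildtype C57BL/6 male mice at postnatal day 49 (7 weeks), whose backs were shaved, and topical treatment was given 3 times over 5 days. There were 2 libraries with forskolin (10 µM), an activator of adenylyl cyclase, 2 with cAMP (1.325 mM), its product, and 1 labelled untreated, called the control here. Compounds were given in DMSO and PLO lotion. Whether the untreated skin got that lotion, and whether each library is its own mouse, is not stated. All p-values hence reflect library-to-library spread, perhaps technical alone. The epidermis was dissected and freed by trypsin overnight. The series addresses how Creb, a factor activated by cAMP, may bring the hair cycle forward.

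C/EBP and ATF proteins bind DNA as dimers, in pairs that differ between cell types, and several of the members here dimerise with each other. In the epidermis C/EBPα and C/EBPβ are known for driving keratinocytes out of the basal layer and into differentiation, and C/EBPs also act in lipid-filled cells such as sebocytes. ATF4, ATF5 and CHOP (the product of Ddit3) belong to the integrated stress response, in which phosphorylated eIF2α slows general translation while their own mRNAs are translated more. ATF6 and XBP1 serve the unfolded protein response of the endoplasmic reticulum. ATF6 is cut free from the membrane, and Xbp1 mRNA is spliced by IRE1. Protein level, cleavage and that splicing step were not measured here, so the values below are amounts of mRNA only.

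Promoter windows from RefSeq (GRCm38.p6), reaching from 250 bases before to 50 bases after a start site, were at hand for 8 of the 10 members, in 9 windows. They are shown for Cebpb, the single member that passed the test below, for its sister gene Cebpa, for Atf3 and Atf4, and for both starts of Atf5. Capitals mark matches to TGACG, the core of the cAMP response element, or to CCAAT, read on either strand. A match on the other strand appears as its reverse complement. The full cAMP response element, TGACGTCA, would hold TGACG on both strands, and the XBP1 and ATF6 element searched below also begins with it.

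Cebpb, chr2:167688665-167688964, plus strand: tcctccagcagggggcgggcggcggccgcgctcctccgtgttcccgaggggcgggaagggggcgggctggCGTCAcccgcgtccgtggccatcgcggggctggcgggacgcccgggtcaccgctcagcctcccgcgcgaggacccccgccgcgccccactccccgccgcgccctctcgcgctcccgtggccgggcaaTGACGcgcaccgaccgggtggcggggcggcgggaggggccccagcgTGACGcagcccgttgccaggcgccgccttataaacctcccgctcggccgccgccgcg
Cebpa, chr7:35119043-35119342, plus strand: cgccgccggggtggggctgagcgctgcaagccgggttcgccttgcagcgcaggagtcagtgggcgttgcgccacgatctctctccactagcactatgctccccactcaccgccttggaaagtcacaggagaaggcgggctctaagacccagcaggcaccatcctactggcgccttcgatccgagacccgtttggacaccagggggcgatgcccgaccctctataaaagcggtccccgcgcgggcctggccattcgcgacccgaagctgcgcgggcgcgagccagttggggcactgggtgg
Atf3, chr1:191183284-191183583, minus strand: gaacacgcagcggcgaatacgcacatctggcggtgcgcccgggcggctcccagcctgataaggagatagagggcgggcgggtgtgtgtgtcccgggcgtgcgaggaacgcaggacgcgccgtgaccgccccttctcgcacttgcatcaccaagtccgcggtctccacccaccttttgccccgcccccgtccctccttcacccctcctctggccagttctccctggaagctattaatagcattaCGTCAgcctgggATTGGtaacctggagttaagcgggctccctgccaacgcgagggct
Atf4, chr15:80254934-80255233, plus strand: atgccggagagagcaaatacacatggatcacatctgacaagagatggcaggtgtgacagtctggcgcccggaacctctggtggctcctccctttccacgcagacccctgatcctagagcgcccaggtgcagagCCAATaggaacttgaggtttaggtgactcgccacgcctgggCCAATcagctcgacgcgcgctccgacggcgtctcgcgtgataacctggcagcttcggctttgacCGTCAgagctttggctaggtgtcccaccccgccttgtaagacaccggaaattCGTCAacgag
Atf5, upstream start, chr7:44816609-44816908, minus strand: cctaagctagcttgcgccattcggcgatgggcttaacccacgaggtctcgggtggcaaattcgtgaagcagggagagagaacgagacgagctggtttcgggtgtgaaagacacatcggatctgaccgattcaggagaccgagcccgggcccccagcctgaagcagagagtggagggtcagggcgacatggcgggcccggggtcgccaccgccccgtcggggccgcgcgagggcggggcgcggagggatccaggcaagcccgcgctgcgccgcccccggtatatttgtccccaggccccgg
Atf5, downstream start, chr7:44815609-44815908, minus strand: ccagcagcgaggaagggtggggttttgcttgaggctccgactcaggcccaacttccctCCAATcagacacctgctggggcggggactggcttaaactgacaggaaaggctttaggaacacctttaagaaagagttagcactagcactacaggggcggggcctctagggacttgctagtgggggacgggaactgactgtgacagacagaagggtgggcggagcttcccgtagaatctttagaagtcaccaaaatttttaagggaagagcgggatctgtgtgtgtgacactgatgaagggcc

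Of these, the window of Cebpb held TGACG at 3 places, that of Atf4 at 2 and that of Atf3 at 1, and the windows of the other 5 members held none. Of 32851 such windows of all genes, 20.8% held at least 1 match and 1.03% held at least 3. The cut of 3 is the count of the Cebpb window itself. That window is 80.7% G or C, and the windows of all genes were not matched to it in base content. CCAAT was found in windows of 5 of these 8 members (Cebpg, Atf3, Atf4, the downstream start of Atf5, and Ddit3). Counted by gene, 41.1% of all genes held it in any window, and 37.4% of all windows did. No member window held TGACGTCA (1.79% of all windows), the C/EBP-ATF composite TGATGNAAT (0.965%), the C/EBP site TTGCGNAA (0.798%) or the XBP1 and ATF6 element TGACGTGG (0.676%), all searched on both strands. A match is a string of letters and not a measured binding site, and a missing match speaks only for these 300 bases.

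Both comparisons with the control share 1 library, and its composition was unlike that of the other 4. Nuclear genes, leaving out rRNA and pseudogenes, held 7.9% of its listed values against 25.9% to 38% in the treated libraries, and mitochondrial genes 69.3% against 43.1% to 58%. Values are CPM (read counts scaled by the authors to library size), and "scaled CPM" are these values divided by a median-of-ratios size factor per library, which was 0.325 for the control and between 1.12 and 1.64 for the treated libraries. As deposited, the median of 13764 tested genes lay 1.69 log2 units higher with forskolin and 1.66 higher with cAMP than in the control, and after scaling 0.21 and 0.20. Changes are given on the scaled values unless stated otherwise. Keratinocyte identity was plain in all 5 libraries: Krt5, a basal keratin, ran from 535 to 2300 deposited CPM and Krt10, a suprabasal keratin, from 575 to 1302. The summed dermal fibroblast markers (10 genes) ran from 24.9 CPM in forskolin 1 to 318 CPM in cAMP 2, and endothelial and mural markers (7 genes) from 2.15 to 5.53 CPM. In such bulk samples, fewer cells of a type and less RNA per cell cannot be told apart.

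Cebpb was higher than in the control with both agents, and it was the single member for which limma's test passed. It stood at 6.38 scaled CPM in the control, 21.6 and 104 with forskolin, and 41.5 and 35.1 with cAMP, so every treated library lay above the control. As deposited these values were 2.08, 30.5, 137, 67.8 and 39.2 CPM. The group means were 62.9 ± 58.5 scaled CPM with forskolin and 38.3 ± 4.46 with cAMP (SD, n = 2 each), 9.85-fold and 6-fold the control. The log2 change was 2.72 ± 0.58 with forskolin (SE, limma adjusted p = 0.0035) and 2.41 ± 0.58 with cAMP (limma adjusted p = 0.00689). It was larger than that of 98.1% and 96.5% of tested genes. With no filter on low values the adjusted p became 0.125 and 0.159, and with robust empirical Bayes 0.22 and 0.263. Without forskolin 2 the change with forskolin was 1.61 (limma adjusted p = 0.0117). In the comparison of cAMP with the control the call was also lost without cAMP 1 (2.29, limma adjusted p = 0.101) or without cAMP 2 (2.52, limma adjusted p = 0.0724). Beside these values, the dermal fibroblast markers summed to 577 scaled CPM in the control and from 17.6 to 285 with the agents, and their part in the Cebpb result was not tested. Cebpb lies on chromosome 2 at 167688915 to 167690418 (ENSMUSG00000056501, plus strand) and is listed with 1 transcript.

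**Figure D1:**
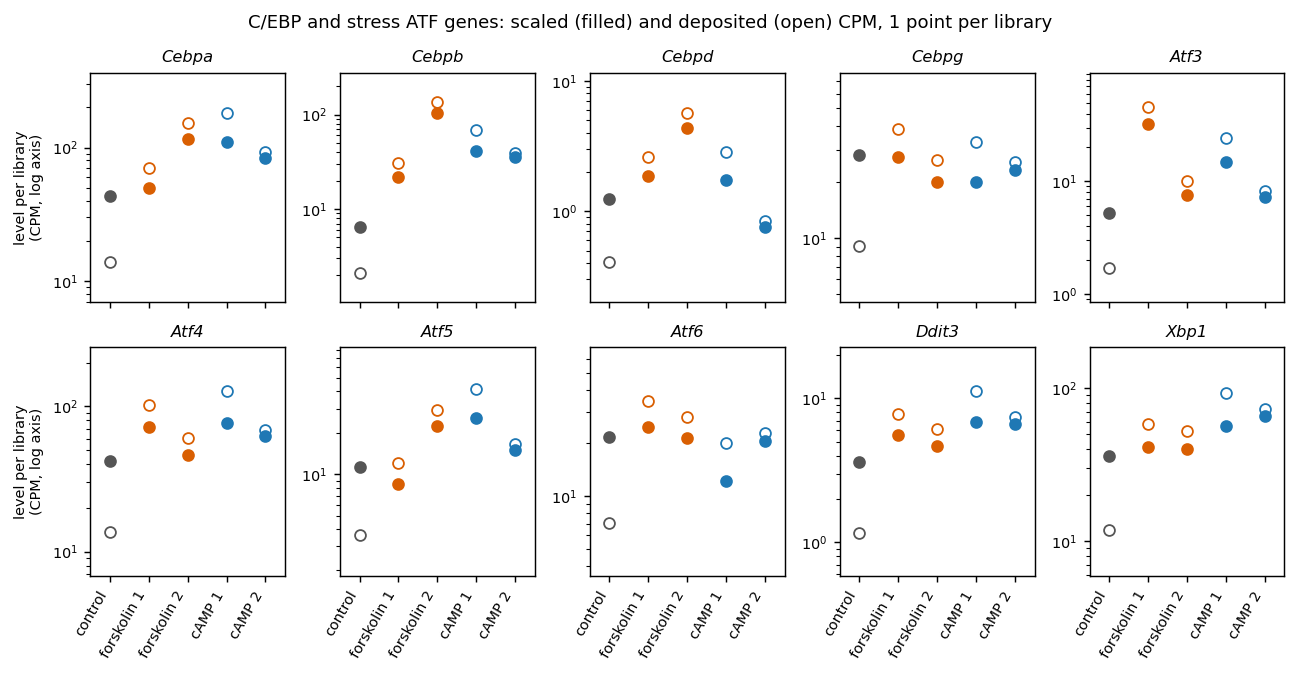
Level of each of the 10 genes in each of the 5 libraries on a log axis, as scaled CPM (filled circles) and deposited CPM (open circles), with 1 point per library. Cebpb in the 4 treated libraries sits between 21.6 and 104 scaled CPM, above 6.38 in the control, and most other members lie closer to their control value after scaling.

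Of the 10 members, all of which passed the filter on low values, 1 was called with forskolin and 1 with cAMP, and none fell. Over all tested genes limma called 21.7% with forskolin (14.9% higher, 6.79% lower) and 22.7% with cAMP (15.4% higher, 7.23% lower). With only 10 members, a count of 1 is too small to set their share apart from these. On the values as deposited 10 members were called higher with forskolin, where 66.7% of all genes were called (66.3% higher, 0.341% lower). With cAMP 9 were called higher, all but Cebpd, where 65.6% of all genes were called (65.1% higher, 0.436% lower). Without forskolin 1 the members called higher with forskolin numbered 2 (Cebpb and Cebpa), and without forskolin 2 also 2 (Cebpb and Atf3). In the comparison of cAMP with the control they numbered 2 (Cebpb and Cebpa) without forskolin 1 or without forskolin 2, and 0 without cAMP 1 or without cAMP 2. The median log2 change of the members was 0.43 with forskolin and 0.74 with cAMP, beside 0.21 and 0.20 for all tested genes. By level alone, both forskolin libraries lay above the control for 7 members (51.1% of all genes) and below it for 1 (35.3%). Both cAMP libraries lay above it for 7 (48.8%) and below it for 2 (34.8%). All 4 treated libraries were above it for 6 (42.1%) and below it for 1, Cebpg (27.8%).

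**Figure D2:**
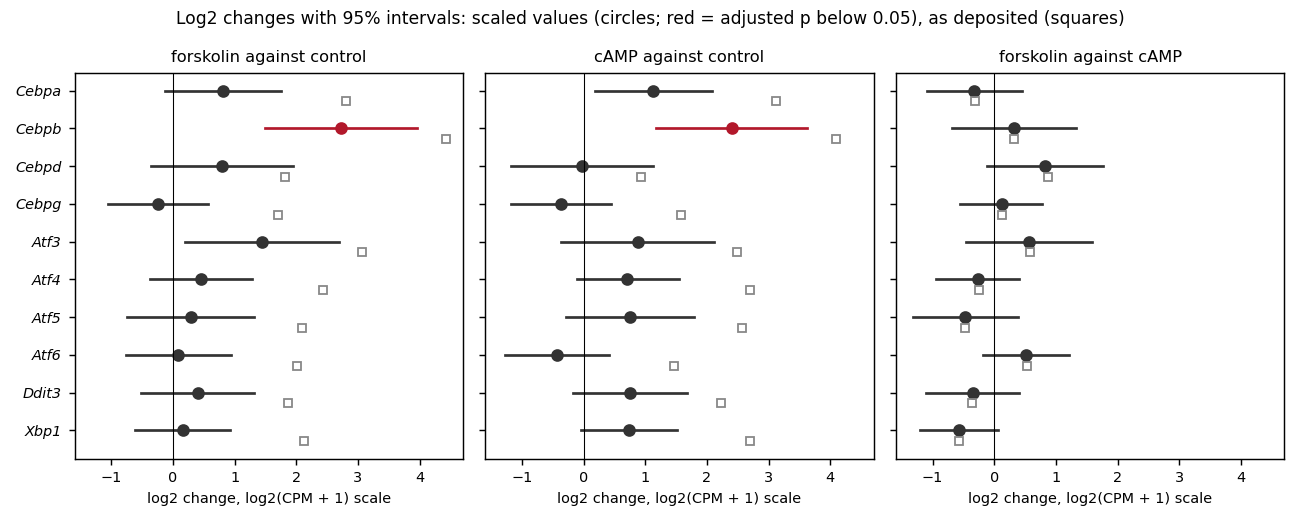
Log2 change of each gene in the 3 comparisons, on the log2(CPM + 1) scale, with circles and 95% intervals for scaled values (red where limma's adjusted p was below 0.05) and squares for values as deposited. Cebpb is red in both comparisons with the control (2.72 and 2.41), no circle is red for forskolin against cAMP, and the squares lie to the right of the circles in the first 2 panels.

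The rise of Cebpb relative to the other members does not depend on how libraries are scaled, since it can be read as a ratio within each library. The ratio of Cebpb to Cebpa was 0.148 in the control, 0.431 and 0.898 with forskolin, and 0.377 and 0.423 with cAMP. All 4 treated libraries were above the control. The ratio of Cebpb to Cebpg was 0.229 in the control, 0.788 and 5.19 with forskolin, and 2.07 and 1.52 with cAMP. Against 8 of the 9 other members, the ratio was higher in all 4 treated libraries than in the control. The exception was Atf3, where forskolin 1 lay below the control, at 0.668 against 1.22, while the other 3 treated libraries lay between 2.8 and 13.7. No other member reached such a count: the ratio of Cebpa was higher in all 4 treated libraries against 4 members, that of Ddit3 against 3, and those of the rest against 2 or fewer. Cebpb was singled out by its rise in these same values. Its 9 ratios share the same Cebpb values and the same control library, so their count is a description and not a test. Within its own library, Cebpb ranked above 48.7% of tested genes in the control, 81.2% and 98.2% in forskolin 1 and 2, and 91.8% and 90.1% in cAMP 1 and 2.

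**Figure D3:**
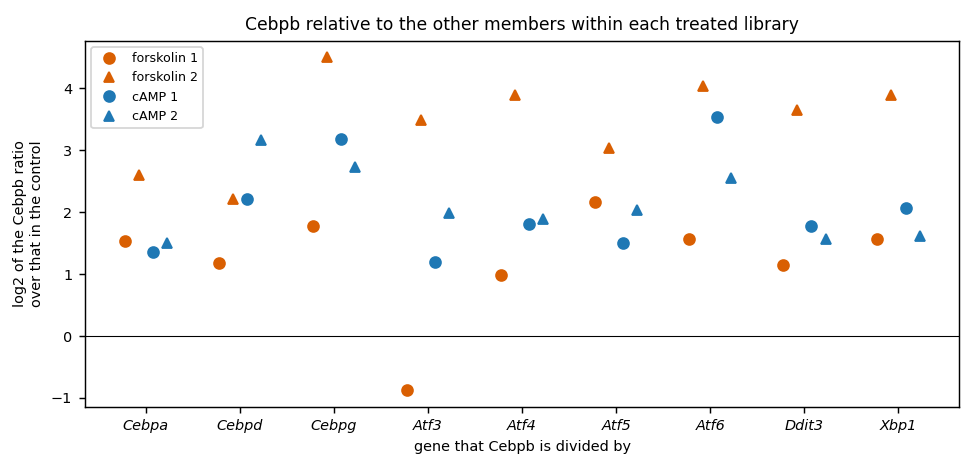
Ratio of Cebpb to each other member within a treated library, shown as the log2 of that ratio over the same ratio in the control library, with 1 point per treated library. All points but 1 lie above 0, the exception being the ratio to Atf3 in forskolin 1 at -0.87.

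Cebpa, whose product slows the cell cycle and takes part in keratinocyte and lipid cell differentiation, stood at 43.1 scaled CPM in the control, 50 and 116 with forskolin, and 110 and 83.1 with cAMP. All 4 treated libraries were above the control, but forskolin 1 only by 1.16-fold. Its log2 change did not pass with forskolin (0.81 ± 0.45, limma adjusted p = 0.198) or with cAMP (1.13 ± 0.45, limma adjusted p = 0.0765). Without forskolin 1 it passed with forskolin (1.41, limma adjusted p = 0.0207). Without forskolin 1 or forskolin 2 it passed with cAMP (limma adjusted p = 0.027 and 0.0267), and without forskolin 2 its change with forskolin was 0.21. Cebpa lies on chromosome 7 at 35119293 to 35121926 (ENSMUSG00000034957).

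Cebpd, an acute-phase member of the family, stood at 1.25 scaled CPM in the control, 1.85 and 4.35 with forskolin, and 1.75 and 0.761 with cAMP. The cAMP libraries lay on both sides of the control. The table's annotation lists Cebpd (ENSMUSG00000071637, chromosome 16, 15887286 to 15888466) as a pseudogene with a shorter transcript than GENCODE M21, which calls it protein coding, and what that does to its value was not tested. Cebpg, whose product lacks a strong activation domain of its own and pairs with ATF4, was at 27.9 scaled CPM in the control and between 20 and 27.4 in the treated libraries. All 4 treated libraries were thus a little below the control, and the log2 changes were -0.24 ± 0.39 with forskolin and -0.36 ± 0.39 with cAMP, neither of which passed (limma adjusted p = 0.676 and 0.524). On the values as deposited Cebpg was called higher, with log2 changes of 1.71 and 1.58 that lie near the shift of the median gene.

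Atf3 is an early stress gene whose product often represses transcription, and after Cebpb it differed most of the 10 between the forskolin libraries. It stood at 5.23 scaled CPM in the control, 32.3 and 7.63 with forskolin, and 14.8 and 7.32 with cAMP. All 4 treated libraries lay above the control, with forskolin 1 4.23-fold above forskolin 2. Its log2 change did not pass with forskolin (1.44 ± 0.59, limma adjusted p = 0.0857) or cAMP (0.88 ± 0.59, limma adjusted p = 0.291). Without forskolin 2 it passed with forskolin (2.42, limma adjusted p = 0.000139), and without forskolin 1 the change was 0.47. Of all tested genes, 3.31% differed between the forskolin libraries by as much as Cebpb and 3.75% by as much as Atf3, but in opposite directions: Cebpb was 4.83-fold higher in forskolin 2. Fosb, an immediate-early gene that also responds to tissue handling, stood at 42.5 and 16.2 scaled CPM in forskolin 1 and 2, 14.8 and 6.79 in cAMP 1 and 2, and 1.31 in the control. The 17 handling genes, which include Fosb, summed to 314 scaled CPM in the control, 416 and 395 in forskolin 1 and 2, and 490 and 338 in cAMP 1 and 2. Of them, 8 were called higher and 1 lower with forskolin, and 8 higher and 2 lower with cAMP. Some, such as Jund and Hspa1b, were lower in forskolin 1 than in forskolin 2, unlike Fosb. Jund and Hspa1b were named after their values were seen. The part of the handling genes in the Atf3 and Cebpb values was not tested.

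None of the integrated stress response factors passed the test. Atf4, the main effector of that response, was at 41.8 scaled CPM in the control, 71.9 and 46.1 with forskolin, and 77.3 and 62.1 with cAMP. Every treated library was above the control, by 1.1-fold to 1.85-fold, and neither log2 change passed (0.45 ± 0.39, limma adjusted p = 0.418, and 0.71 ± 0.39, limma adjusted p = 0.198). Ddit3, the gene of CHOP, an inhibitory partner of C/EBPs linked to cell death, was at 3.61 scaled CPM in the control, 5.54 and 4.69 with forskolin, and 6.88 and 6.69 with cAMP. Within libraries, the ratio of Atf4 to Ddit3 was 11.6 in the control and between 9.28 and 13 in the treated libraries, a range that holds the control. The treated Ddit3 sums include a retained-intron transcript, Ddit3-003 (8.1% to 32.7% of the gene), listed under 1 read in the control. Without it the ratio lay above the control in every treated library. Ddit3 rests on about 58 reads in the control, and the ratio was not tested. Atf5, a relative of Atf4 expressed with it under stress, was at 11.2 scaled CPM in the control, 8.48 and 22.4 with forskolin, and 25.6 and 15 with cAMP. Forskolin 1 lay below the control and the other treated libraries above it. The changes of Ddit3 (0.40 and 0.76) and Atf5 (0.29 and 0.75) did not pass with either agent (limma adjusted p from 0.222 to 0.695).

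For the unfolded protein response, Xbp1 was at 36.2 scaled CPM in the control, 41.1 and 39.8 with forskolin, and 56.4 and 65.5 with cAMP. Atf6 was at 21.7 scaled CPM in the control, 24.7 and 21.5 with forskolin, and 12.2 and 20.5 with cAMP. Both Xbp1 values with cAMP lay above all others, while both Atf6 values with cAMP lay below all others. None of these changes passed, the smallest adjusted p being that of Xbp1 with cAMP (0.73 ± 0.37, limma adjusted p = 0.162). As deposited, the change of Atf6 with cAMP was 1.47. The ratio of Xbp1 to Atf6 was 1.67 in the control, 1.67 and 1.85 with forskolin, and 4.61 and 3.2 with cAMP, so it was higher in both cAMP libraries than in the other 3. This ratio was picked after the values were seen and has no test of its own.

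Between the agents, limma called none of the 10 members, at a background of 0.443% of tested genes (61 genes, 0.124% higher and 0.32% lower with forskolin). On the values as deposited it also called none, where 0.378% of genes were called, 0.189% in each direction. By level alone the groups did not overlap for 4 members, Cebpd and Atf6 being higher with forskolin (21.1% of all genes) and Ddit3 and Xbp1 lower (20.5%). Without forskolin 2, Atf3 was called higher with forskolin than with cAMP (1.54, limma adjusted p = 0.045), and without forskolin 1 its difference was -0.41. The smallest unadjusted p-values of the comparison were those of Xbp1 (forskolin minus cAMP, -0.57 ± 0.30, 95% interval -1.21 to 0.06, limma adjusted p = 0.503) and Cebpd (0.83 ± 0.45, interval -0.11 to 1.76, limma adjusted p = 0.52). For Cebpb the difference was 0.32, with an interval from -0.69 to 1.32, and its sign turned without forskolin 2 (-0.80). The 95% intervals reached past a 2-fold difference for 8 of the 10 members, so like responses to both agents are not shown. The doses of the agents differed, and no dose was varied.

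Per kilobase of transcript, which allows levels of different genes to be set side by side, Atf4 and Xbp1 led in the control at 7.88 and 5.54 deposited CPM per kilobase, followed by Cebpa at 5.34. Cebpb was seventh there at 1.38, below Atf5 (2.09), Ddit3 (1.96) and Cebpg (1.93). In forskolin 2 Cebpb was the highest of all 10 at 90.9, ahead of Cebpa at 58 and Atf4 at 35.1. In forskolin 1 it was the fifth at 20.3, behind Atf4 (58.9), Xbp1 (32), Cebpa (26.9) and Atf3 (23.9). In cAMP 1 and 2 it was the fourth at 45.1 and 26.1. Cebpd and Atf6 held the last places or were close to them in all libraries, with Atf3 between them in the control.

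Atf3, Atf5, Ddit3 and Xbp1 are listed with several transcripts, whose shares within a gene are free of library scaling. The 2 coding transcripts of Atf3 carry the same coding sequence identifier but start at different sites, Atf3-001 at position 191183340 and Atf3-003 far upstream at 191218039 on chromosome 1. Atf3-003 held 87.7% of Atf3 in the control, 49.2% and 14.9% with forskolin, and 46.5% and 11.3% with cAMP. The rest was mostly Atf3-001, whose start lies 7 bases from that of the promoter window shown above. Its level was 0.209 deposited CPM in the control and between 6.85 and 22.9 CPM under treatment. Atf3-003 was at 1.49 CPM in the control and also at 1.49 CPM in forskolin 2, both as deposited. Divided by the size factors (0.325 and 1.31), it was lower in forskolin 2 than in the control. On that scale cAMP 2 also lay below the control, while forskolin 1 and cAMP 1 lay above it. Forskolin 1 and cAMP 1, the libraries with most Atf3, had the larger shares of Atf3-003 among the treated ones.

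Atf5 showed the same kind of difference. Atf5-001, from the upstream start at 44816658, held 9.9% of Atf5 in the control, 77.6% and 97.9% with forskolin, and 91.2% and 71% with cAMP. Atf5-002, from the start at 44815658, was at 3.28 deposited CPM in the control and between 0.604 and 4.83 CPM in the treated libraries. That range includes the control only as deposited. Divided by the size factors (0.325 for the control, 1.12 to 1.64 for the others), it lay below the control in every treated library. The larger treated sums of Atf5 as deposited came mostly from Atf5-001, which was at 0.361 CPM in the control and between 9.31 and 38.1 CPM elsewhere. Both carry the same coding sequence identifier. In the control these shares rest on about 18 reads for Atf5-001 and 10 for Atf3-001. Transcripts of a gene share most of their sequence, so the shares rest on how the authors' software split reads between them, and the shares were not tested.

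Ddit3 was listed in the control only as Ddit3-002, at 1.17 deposited CPM, while all 4 treated libraries also listed Ddit3-001 (29.2% to 51% of the gene) and the retained-intron transcript Ddit3-003 (8.1% to 32.7%). Xbp1 was likewise listed in the control only as Xbp1-001, which held 77.1% to 89.9% in the treated libraries. The retained-intron transcript Xbp1-002 held 3.03% to 9.1% there. The table has no separate entry for the form of Xbp1 that IRE1 splices. The control listed minor transcripts under 1 read for Atf6, Cebpg and Atf3 too, in a library in which 9791 genes reached 1 CPM against 12867 to 13551 in the treated ones.

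**Figure D4:**
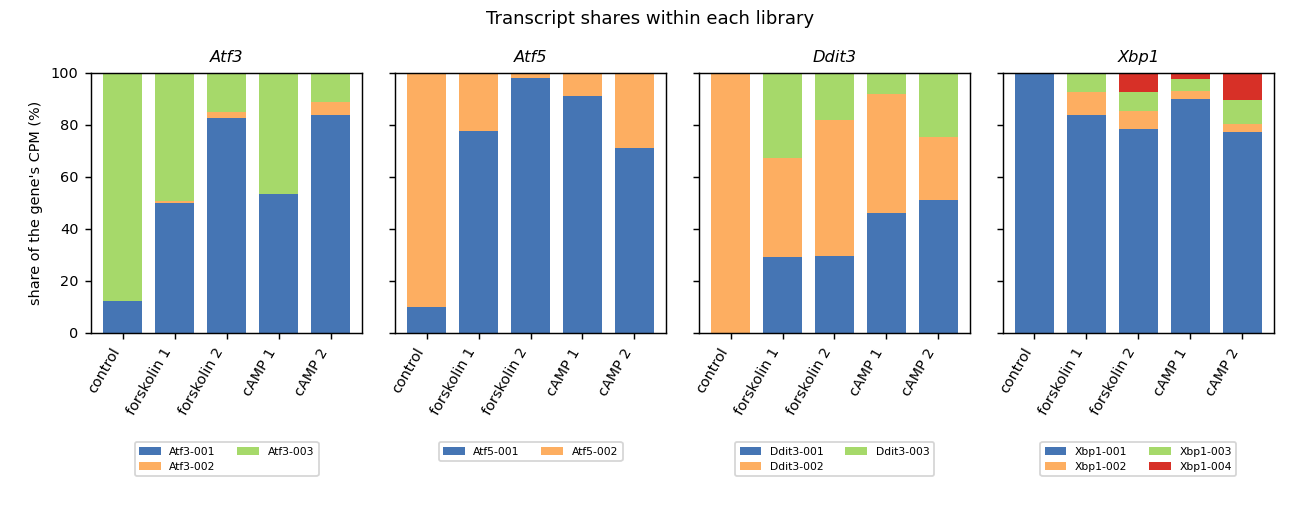
Share of each gene's CPM held by each of its listed transcripts, in percent, as stacked bars for the 5 libraries. Atf3-003 holds 87.7% of Atf3 and Atf5-002 90.1% of Atf5 in the control bar, and both hold smaller shares in every treated bar.

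Genes around the members were grouped by role. Of 16 tested stress sensors, eIF2α kinases and feedback genes, 3 rose and none fell with forskolin, and 2 rose with cAMP. Among all tested genes 14.9% were called higher with forskolin and 15.4% with cAMP. The list's median log2 change was 0.05 with forskolin and 0.18 with cAMP, beside 0.21 and 0.20 for all genes. Ppp1r15b, a subunit of an eIF2α phosphatase, rose from 7.97 scaled CPM to 26.9 and 22.4 with forskolin and 20.8 and 30 with cAMP (limma adjusted p = 0.012 and 0.00987). With cAMP the call was lost without cAMP 2 (log2 change 1.28). Ppp1r15a, on the same list, was not called with either agent. It was at 7.1 scaled CPM in the control, 5.98 and 4.78 with forskolin, and 8.7 and 1.1 with cAMP, and was named after its values were seen. Trib2, a pseudokinase known for driving breakdown of C/EBPα protein, rose with both agents. It was listed under 1 read in the control and between 3.37 and 5.86 scaled CPM under treatment, and passed the filter only through the treated libraries. Trib1, another member of that family, passed with forskolin (1.31 ± 0.40, limma adjusted p = 0.0277), but not without forskolin 1 (0.0731) or forskolin 2 (0.0712). Trib3, an ATF4 and CHOP target that dampens both, was at 3.42 scaled CPM in the control and between 0.651 and 1.61 under treatment, and did not pass (limma adjusted p = 0.0576 with forskolin).

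ATF4 and CHOP target genes rose in 6 of 28 tested cases with forskolin and in 8 with cAMP, and none fell. Over all tested genes 14.9% and 15.4% were called higher. Of the 28, 4 were under 3 reads in the control, Stc2, Bbc3 and Tnfrsf10b among them. These 4 passed the filter on low values only through the treated libraries, so both counts are partly set by that filter. The median log2 changes were 0.53 and 0.57, above those of all genes, and without forskolin 2 the first count was 3, without cAMP 1 the second was 5. With forskolin the genes that rose were Phgdh, Slc7a5, Eif4ebp1, Stc2, Bbc3 and Tnfrsf10b (the last not without forskolin 1 or without forskolin 2), and with cAMP Phgdh, Psph, Psat1, Slc7a5, Eif4ebp1, Stc2, Vldlr and Bbc3. Phgdh, the first enzyme of serine synthesis, stood at 6.91 scaled CPM in the control, 20.9 and 27.4 with forskolin, and 46.6 and 26.5 with cAMP (limma adjusted p = 0.00945 and 0.00117). Slc7a5, a transporter of large neutral amino acids, stood at 3.49 scaled CPM in the control, 16.7 and 23.4 with forskolin, and 18.4 and 14.2 with cAMP (limma adjusted p = 0.00118 and 0.00271). Psph, the last enzyme of serine synthesis, rose with cAMP, to 88.8 scaled CPM in both libraries from 25 in the control (limma adjusted p = 0.00269). Bbc3, the gene of the death factor PUMA, was listed under 1 read in the control and stood at 2.49 to 4.46 scaled CPM in the treated libraries. Asns, the asparagine synthetase gene, was at 10.9 scaled CPM in the control and between 6.09 and 11.7 under treatment, and did not pass. Chac1, a glutathione-degrading enzyme gene, was below the filter. Asns and Chac1, and those above given by name only, were named after their values were seen.

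ATF6 and XBP1 targets, the chaperones and degradation factors of the endoplasmic reticulum, rose in 1 of 28 cases with forskolin and in 3 with cAMP. Their medians were 0.17 and 0.44, beside 0.21 and 0.20 for all tested genes, of which 14.9% and 15.4% were called higher. Syvn1, a ubiquitin ligase of that compartment, was at 4.42 scaled CPM in the control, 18.2 and 23 with forskolin, and 23.9 and 13 with cAMP (limma adjusted p = 0.00365 and 0.00648). Without cAMP 1 the latter was lost (0.0663). Manf (limma adjusted p = 0.0472) and Derl1 (0.0494), both linked to the stressed endoplasmic reticulum, passed with cAMP only barely, and neither passed without cAMP 1 or without cAMP 2. Hspa5, the main chaperone BiP, was at 72 scaled CPM in the control, 87 and 79.2 with forskolin, and 129 and 148 with cAMP. Both cAMP libraries were above both forskolin libraries, as for Xbp1, but the difference between the agents did not pass (-0.73 ± 0.31, limma adjusted p = 0.369). In that comparison 22 of the 28 targets lay lower with forskolin, and none was called. The list's median there was -0.37, beside 0.02 for all tested genes. All 28 share the same libraries, so their count is a description and not a test.

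**Figure D5:**
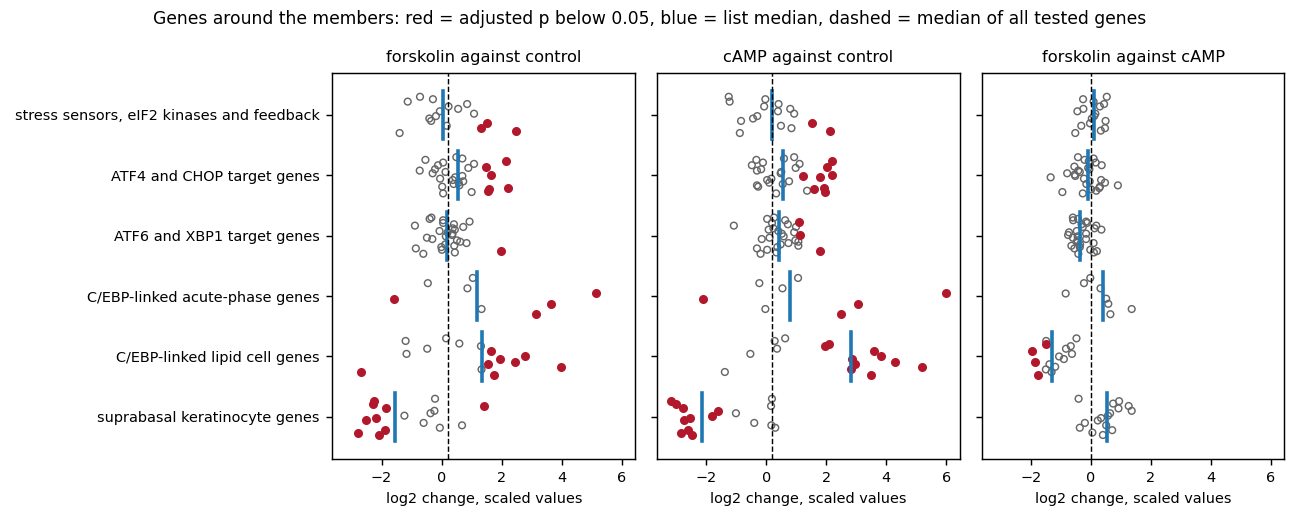
Log2 change on scaled values of each tested gene in 6 lists for the 3 comparisons, with red points for limma's adjusted p below 0.05, blue bars at list medians and a dashed line at the median of all tested genes. Lipid cell genes spread to the right and suprabasal genes to the left in both comparisons with the control. The medians of the stress lists run from 0.05 to 0.57 there, beside 0.21 and 0.20 at the dashed line.

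C/EBP factors also act on acute-phase and lipid cell genes in other tissues. Of 8 tested acute-phase genes, 3 rose and 1 fell with each agent. Those that rose were Lcn2, S100a8 and Socs3, and Orm1 fell. Socs3, a brake on cytokine signals, stood at 1.81 scaled CPM in the control, 26.1 and 21.5 with forskolin, and 20.6 and 10.5 with cAMP (limma adjusted p = 0.000131 and 0.000641). It is also on the tissue handling list. Lcn2 and S100a8, both antimicrobial, were listed under 1 read in the control and stood at 26.5 to 71.7 and 6.58 to 12.6 scaled CPM in the treated libraries. Of the 8 tested genes, 4 were under 3 reads in the control and passed the filter on low values only through the treated libraries, so no median is given for this list and its count of genes that rose is partly set by that filter.

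Of 15 lipid cell genes, 7 rose and 1 fell with forskolin, and 10 rose and none fell with cAMP. Without forskolin 2, 3 rose and 1 fell with forskolin. The median log2 changes were 1.33 and 2.83, in a list of which 2 genes passed the filter only through the treated libraries. Lpl, the gene of lipoprotein lipase, stood at 6.66 scaled CPM in the control, 30.3 and 54.6 with forskolin, and 120 and 185 with cAMP. Pparg, a partner of C/EBPs in fat cell differentiation, was listed under 1 read in the control and stood at 14.6 and 15 scaled CPM with forskolin and 33.6 and 36.7 with cAMP. The list lay lower with forskolin than with cAMP for all 15 genes, 4 of them called (Elovl3, Lpl, Cidea and Soat1), but none was called without cAMP 1 or without cAMP 2, 1 without forskolin 1 and 8 without forskolin 2. Sebaceous gland markers, 6 of which are also on this list, summed to 811 scaled CPM in the control, 1708 and 2747 with forskolin, and 4407 and 6283 with cAMP. Cebpb was highest in forskolin 2, both scaled and as deposited. The mean of Cebpa was 43.1 scaled CPM in the control, 83.1 with forskolin and 96.6 with cAMP, the same order of groups as the marker sums. By library the orders differed. Cebpa was at 50 and 116 scaled CPM in forskolin 1 and 2, and at 110 and 83.1 in cAMP 1 and 2, while the marker sum was highest in cAMP 2. The part of sebocyte content in the member values was not tested.

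Suprabasal keratinocyte genes, a set in which C/EBPα and C/EBPβ are known to act, fell in 8 of 16 cases and rose in 1 (Grhl3) with forskolin, and fell in 10 with cAMP, with medians of -1.55 and -2.15. Dsc1, a desmosomal cadherin gene, stood at 82.1 scaled CPM in the control, 16.1 and 17.2 with forskolin, and 7.51 and 8.92 with cAMP (limma adjusted p = 0.000682 and 2.35e-05). Sbsn, a gene of the upper layers, stood at 1258 scaled CPM in the control and between 144 and 212 under treatment. On the values as deposited none of the 16 genes was called lower, and 7 and 5 were called higher, so the direction of this list depends on the scaling. Related bZIP and CCAAT-binding genes were called in 4 of 21 cases with forskolin (3 higher, 1 lower) and in 2 with cAMP (Hlf and Cebpz, both lower). With cAMP that count moved without forskolin 2. Limma called 21.7% and 22.7% of all tested genes, so these counts are not above the background. Nfil3, a repressor tied to the clock, rose with forskolin from 0.623 to 8.48 and 6.62 scaled CPM (limma adjusted p = 0.00422). Hlf, a clock output factor, was lower with cAMP, at 5.64 and 6.53 scaled CPM against 38.9 (limma adjusted p = 0.000264). It was also called lower with forskolin, at 15.9 and 14.7 (limma adjusted p = 0.0263), but not without forskolin 2 (0.0829), and as deposited its changes were 0.68 with forskolin and -0.57 with cAMP, neither of which passed.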

How the data were processed

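Libraries were stranded mRNA libraries of total epidermis, per the labels' protocols. The submitters' processing notes name STAR, Partek and bcl2fastq 2.17, per the labels. Tool settings, genome build and annotation: not given in the sources used here. As made by the authors, the deposited table gives CPM per transcript, a unit read from the values: columns sum to between 805255.8 and 947144.3. If the offset held in place of 0 stands for 0.0001 read, the libraries held 34200000 to 51700000 reads. Low gene sums lay within 0.1 of a whole read in 59.6% to 75.7% of cases (20% by chance), so whole reads were not recovered and no count model was run. Coordinates match GENCODE M21 (GRCm38) for 90.8% of the 98.3% of transcripts found there, with the end corrected by 1 base.

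Columns were matched to samples by the prefix and number of their library codes. Transcripts were summed per gene, and 3 rows without a gene identifier (at most 0.0679% of a library) were left out. The 13764 genes that reached 1 CPM in 2 or more libraries were tested with limma 3.58.1 in R 4.3.3 on log2(scaled CPM + 1), a scale that understates changes of low genes, with an intensity trend, all 5 libraries in one fit, 2-sided, with Benjamini-Hochberg adjustment over all tested genes at 0.05. Size factors are medians of ratios over 11935 genes above 0.05 CPM in every library. Residual degrees of freedom were 2 and prior ones 16.4, and the lone control was assumed to vary as the treated libraries did. The design assumed a gene table, while the file lists transcripts. Scaled values were tested, since as deposited nearly all calls went one way. The fit was checked on simulated data.

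The members and lists were chosen with earlier results of these data known. Named genes are all 10 members and, per list and comparison, up to 4 genes with the smallest p; others are said to be chosen later. Alternatives covered scaling, pseudocount, filter, empirical Bayes, transcript type and left-out libraries. Same-numbered forskolin and cAMP libraries share only a number, and no source says that they were paired. Intervals from counts were not computed, and a floor of 3 reads, used where the control lists under that, covers counting error only.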

Additional observations from a re-analysis of the deposited data

How the results depend on the processing

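The member calls rest on Cebpb. With forskolin, the number of members called was 10 on the values as deposited, 0 with no filter and 0 with robust empirical Bayes, and from 1 to 2 when a library was left out. With cAMP it was 9 as deposited, 0 with no filter and 0 with robust empirical Bayes, and from 0 to 2 when a library was left out. Between the agents it ran from 0 to 1 when a library was left out and was 0 in every other setting run, the fit with the replicate number as a block included. At an unadjusted p under 0.05 none of the 10 passed between the agents with the settings of the report, while Xbp1 did with no filter and others did when a library was left out. With no filter limma's adjusted p of Xbp1 was 0.674. As deposited, Cebpg turned to 1.71 with forskolin and 1.58 with cAMP, Atf6 with cAMP to 1.47, Cebpd with cAMP to 0.93, and Hlf with forskolin to 0.68, on a scale on which the median gene itself lies 1.69 and 1.66 higher. Over all genes, the count with forskolin (2985) became 9177 as deposited, 1902 with quantile normalization, 1960 with no filter and 1542 with a filter of at least 10 CPM, which tests fewer genes. With cAMP (3121) it became 9025, 2045 with quantile normalization and 1578 with that filter. Called genes were higher in 99.5% and 99.3% of cases as deposited, against 68.7% and 68.1% on scaled values. Of the calls with forskolin, 1018 were higher and 884 lower with quantile normalization, and 762 and 1198 with no filter; with cAMP these splits were 1109 and 936, and 946 and 1418. Leaving out a library gave 2039 to 2769 with forskolin and 2028 to 3372 with cAMP. Between the agents (61) it became 35 with quantile normalization, 8 with a pseudocount of 0.1, 0 with no filter, 123 with a filter of at least 10, 169 with robust empirical Bayes, 7 with no intensity trend and 6 with protein-coding transcripts only, and ran from 0 to 201 when a library was left out. With the replicate block it was 185, in a fit of the 4 treated libraries. Deviations of same-numbered libraries had a correlation of -0.07 over genes. Signs of changes that did not pass also turned when a library was left out. With forskolin, Atf5 ran from -0.36 to 0.94 and Atf6 from -0.01 to 0.18, and with cAMP Cebpd ran from -0.35 to 0.29. Between the agents, Cebpa ran from -0.92 to 0.28, Cebpb from -0.80 to 1.43, Cebpg from -0.10 to 0.33, Atf3 from -0.41 to 1.54, Atf4 from -0.58 to 0.05 and Atf5 from -1.12 to 0.19, and of these Atf3 passed at its highest value. The causes of these differences were not tested.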
